A study of Mus musculus with 108 samples.

Results

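In the livers of calorie-restricted mice, 9.40 Mb of the autosomes carried none of the 4 histone marks profiled at positions that were in an active enhancer state on standard diet at both 3 and 12 months of age. These positions are 47016 bins of 200 bp, of 12313718 autosomal bins in all, and adjacent bins joined into 6020 stretches. They were chosen by their chromatin state alone: state 3 or 4 in the standard diet (SD) groups SD 3m and SD 12m, and state 8 in the calorie-restricted group CR 12m. The nearest of 26089 transcription start sites (TSS), one for each RefSeq gene, was then assigned to each bin. The states come from a ChromHMM model that the study trained on 4 marks, H3K4me3, H3K27me3, H3K27ac and H3K4me1, in liver chromatin of female C57BL/6 mice, taken from blocks fixed in formalin and embedded in paraffin. The groups were SD 3m (mice of 3 months, 8 mice and 30 libraries), SD 12m (12 months, 8 mice and 29 libraries) and CR 12m (12 months, 9 mice and 29 libraries). The CR mice received 30% fewer calories from 3 months of age onwards, and the SD mice a standard diet. SD 6m was not analysed here. The libraries of each mark were unequal between SD 3m, SD 12m and CR 12m. They numbered 7, 8 and 5 for H3K4me3, 7, 8 and 6 for H3K27me3, 8, 7 and 9 for H3K27ac, and 8, 6 and 9 for H3K4me1. The libraries of a group were merged before states were assigned, so each group has 1 segmentation, no difference can be compared with the spread between mice, and all values below are descriptions without a test. The reads behind a state are unknown. Bulk liver was used, so fewer cells of a type and loss of a mark within those cells cannot be told apart.

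Enhancers are stretches of DNA, often far from the genes they act on, at which transcription factors bind and raise transcription. Nucleosomes at an enhancer in use carry H3K27ac together with H3K4me1, while a poised enhancer carries H3K4me1 alone and the repressed Polycomb state carries H3K27me3. In the study's model, state 3 (Active enhancer 1) holds both H3K27ac and H3K4me1, state 4 (Active enhancer 2) holds weaker H3K27ac and little H3K4me1, and state 8 (quiescent) holds none of the 4 marks. In hepatocytes, enhancers are bound by HNF4, C/EBP and forkhead factors, which maintain liver identity, and by nuclear receptors and STAT proteins, which respond to nutrients and hormones.

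To show what these elements look like, 1 bin is given below from each of the 6 longest stretches. Sequences are from RefSeq GRCm38.p6, the assembly that mm10 represents, plus strand, 5′ to 3′. In each stretch the bin without masked repeats that held the most of 13 motifs was taken, so the motifs in it are no finding; capitals mark the matches. The first, chr10:87772001-87772200, is in intergenic sequence upstream of Igf1 and holds a match to C/EBP (TTGCNNAA) and one to AP-1 (TGANTCA). The second, chr1:106380601-106380800, lies within Phlpp1, whose product is a phosphatase of AKT, although the nearest TSS is that of Mir3473f; it holds a forkhead (TGTTTAC) and a STAT (TTCNNNGAA) match. The third, chr6:17232201-17232400, is intergenic with the lncRNA gene D830026I12Rik nearest, and holds a nuclear receptor half-site (AGGTCA), an E-box (CACGTG) and an antioxidant response element (TGACNNNGC). The fourth, chr2:118621001-118621200, is within the mitotic checkpoint kinase gene Bub1b and holds a STAT match. The fifth, chr2:6288601-6288800, lies in A230108P19Rik upstream of Usp6nl and holds C/EBP and half-site matches. The sixth, chr13:14157801-14158000, is within Arid4b and holds a forkhead and 2 STAT matches.
Igf1 upstream: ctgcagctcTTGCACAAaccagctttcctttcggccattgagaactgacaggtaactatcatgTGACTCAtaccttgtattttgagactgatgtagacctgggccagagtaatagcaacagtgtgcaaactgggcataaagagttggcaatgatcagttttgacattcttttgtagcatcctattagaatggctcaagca
Phlpp1, nearest TSS Mir3473f: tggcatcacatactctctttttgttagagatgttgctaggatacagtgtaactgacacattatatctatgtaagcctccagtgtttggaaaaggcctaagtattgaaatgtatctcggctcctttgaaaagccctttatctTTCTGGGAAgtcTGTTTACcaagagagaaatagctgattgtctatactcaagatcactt
D830026I12Rik: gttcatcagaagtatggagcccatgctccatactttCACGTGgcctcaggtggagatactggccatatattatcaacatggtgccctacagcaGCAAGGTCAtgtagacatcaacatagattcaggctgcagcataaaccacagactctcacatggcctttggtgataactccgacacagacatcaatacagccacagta
Bub1b: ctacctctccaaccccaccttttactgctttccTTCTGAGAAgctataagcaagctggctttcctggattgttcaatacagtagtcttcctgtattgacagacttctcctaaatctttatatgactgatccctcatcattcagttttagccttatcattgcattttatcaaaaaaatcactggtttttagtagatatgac
Usp6nl upstream: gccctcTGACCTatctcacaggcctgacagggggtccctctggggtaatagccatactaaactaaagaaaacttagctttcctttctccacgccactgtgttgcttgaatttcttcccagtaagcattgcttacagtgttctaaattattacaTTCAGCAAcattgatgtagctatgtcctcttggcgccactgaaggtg
Arid4b: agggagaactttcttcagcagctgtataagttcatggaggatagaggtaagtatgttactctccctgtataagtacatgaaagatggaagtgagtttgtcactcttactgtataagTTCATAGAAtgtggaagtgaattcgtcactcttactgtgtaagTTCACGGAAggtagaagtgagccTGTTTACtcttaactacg

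The lost bins came from state 4 and hardly from state 3. Of the 47016 bins, 45002 (95.7%) were in state 4 in both SD groups, 1861 (3.96%) passed from state 3 to state 4 between the SD ages, 127 (0.270%) were in state 3 in both and 26 (0.0553%) passed from state 4 to state 3. Among the bins kept in state 3 or 4 in all groups, 31.8% were in state 4 in both SD groups and 60.2% in state 3 in both. The name active enhancer therefore holds here mainly in the sense of the second state, with weaker H3K27ac and little H3K4me1. Bins in state 3, which holds both enhancer marks, at both ages were nearly absent. Since these labels are what chose the bins, the values describe them and test nothing.

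In all, 1799578 autosomal bins were in state 3 or 4 in both SD groups, and 2.61% of these were in state 8 in CR 12m (Wilson 95% interval 2.59 to 2.64%). The interval covers the counting of bins only, and neighbouring bins are not independent. In CR 12m, 65.7% of the 1799578 bins carried state 3, 29.3% state 4 and 2.25% the poised enhancer state 5. Just outside the rule, 1735 bins (0.0964%) were in the repressed Polycomb state 6, and 59 (0.00328%) in state 7, whose signature is weak H3K4me3 and minimal H3K27me3. Active enhancer bins on SD that were neither active nor poised in CR 12m were thus almost always without any of the 4 marks, and seldom under H3K27me3. State 8 was also the most common state at large, with 62.1% of all autosomal bins in CR 12m. Of bins in state 4 at both SD ages, 7.4% were lost in CR 12m, 74.4% stayed in state 4 and 15% were in state 3. Of bins in state 3 at both SD ages, 0.0121% were lost, and of those that went from state 3 to state 4, 1.88%.

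The mirror set, bins active in SD 3m and CR 12m and quiescent in SD 12m only, was about as large. It held 48203 bins, 2.64% (2.62 to 2.67%) of the 1824137 bins active in SD 3m and CR 12m, and 96.5% of it was in state 4 in both. A further 84661 bins active in SD 3m were quiescent in both 12-month groups. Both sets share the SD 3m segmentation. Of bins in state 3 in SD 3m and state 4 in the other active group, 1.88% (1.79 to 1.96%) were lost in CR 12m only. The share lost in SD 12m only was 0.545% (0.496 to 0.599%). For bins in state 4 and then 3 the shares were 0.0567% (0.0387 to 0.0830%) and 0.843% (0.796 to 0.893%). The starting states are labels that the rule used, and the intervals treat neighbouring bins as independent. These values thus describe the 2 sets and are no test of diet. Over the autosomes, 8.56% of bins in CR 12m and 9.82% in SD 12m were in state 4, and 12.4% and 10.6% were in state 3.

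**Figure D1:**
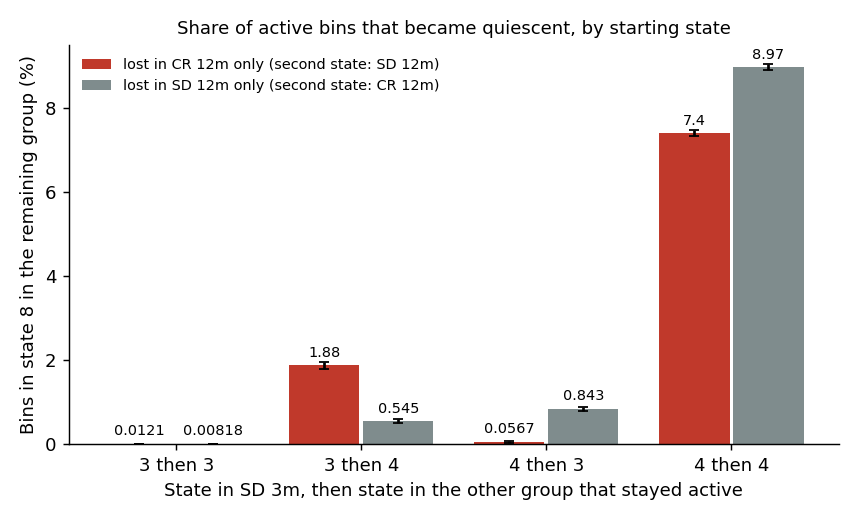
Percent of active bins found in state 8 in the remaining group (vertical axis), by state in SD 3m and in the other group that stayed active (horizontal axis); red bars are bins lost in CR 12m only, grey bars bins lost in SD 12m only, and error bars are Wilson 95% intervals over bins. The red bar reaches 7.4% for bins in state 4 in both SD groups and 0.0121% for bins in state 3 in both.

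The loss was uneven among chromosomes. The share of active bins lost in CR 12m ran from 1.29% on chromosome 11 to 4.83% on chromosome 10, with a median of 2.5%. Chromosome 10 held 5.44% of the bins active in both SD groups and 10.1% of the lost ones, 4730 bins. In the mirror set, the range was 1.21% (chromosome 11) to 4.01% (chromosome 13), and chromosome 10 was at 2.02%, so it was high for loss in CR 12m and not for loss in SD 12m. Chromosome 13 was high in both, at 4.03% and 4.01%. The CR share was above the mirror share on 7 of 19 autosomes. Restricting to bins in state 4 in both SD groups left the same ends, 3.92% on chromosome 11 and 12.9% on chromosome 10.

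**Figure D2:**
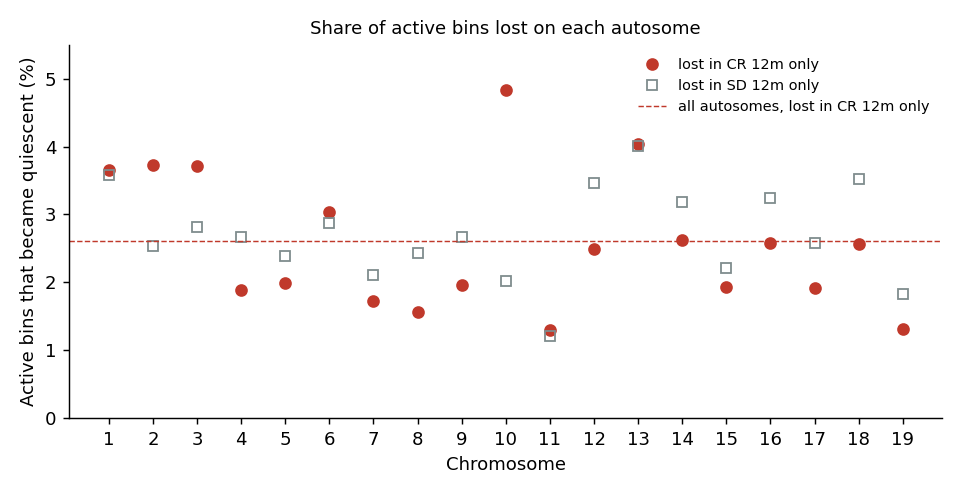
Percent of active bins that became quiescent (vertical axis) on each of 19 autosomes (horizontal axis); red circles are bins lost in CR 12m only, open squares bins lost in SD 12m only, and the dashed line is the value for all autosomes, 2.61%. Chromosome 10 is highest at 4.83% against 2.02% for its square.

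On a finer scale, 1339 of the 1854 windows of 1 Mb with an active bin held at least 1 lost bin, and 188 windows (10.1%) held 50% of all lost bins. The 3 windows with the most were all on chromosome 10. At 17000001-18000000, 372 of 1896 active bins were lost (19.6%), at 20000001-21000000, 349 of 2651 (13.2%), and at 96000001-97000000, 345 of 1453 (23.7%). Bins gained in CR 12m only were few there (23, 41 and 31), as were bins lost in SD 12m only (9, 36 and 33). Over all autosomes, 102072 bins were gained in CR 12m only and 60523 in SD 12m only. The windows, like the genes named below for their lost bins, were picked for quiescence in CR 12m. Low counts of bins active in CR 12m are therefore not independent of that choice. The fourth window, on chromosome 6 at 17000001-18000000, lost 304 of 1931 active bins and gained none.

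Stretches were short, and somewhat more than 50% of them lay beside a bin in an active state in CR 12m. Their median length was 1000 bp (quartiles 400 and 2200 bp), the longest measured 15000 bp, and 894 of the 6020 were a single bin. The 3220 stretches of 1 kb or more held 86.4% of the lost bins. Short stretches were not particular to this set. The 6377 stretches lost in SD 12m only had the same median and quartiles, and the longest measured 16600 bp. When adjacent bins active in both SD groups were joined into domains, 5557 of 74121 domains (7.50%) had a lost bin, and 1997 (2.69%) were lost whole. Wholly lost domains had a median length of 800 bp and held 29.4% (29.0 to 29.9%) of the lost bins, while 60.6% of the lost bins were in domains with a bin still in state 3 or 4 in CR 12m and 9.96% in domains of neither kind. In CR 12m, 50.4% of the stretches had a bin in state 1 to 4 directly on one side, 5.73% on both sides and 43.9% on neither. When the poised state 5 is counted too, these shares were 59.9%, 8.72% and 31.3%. Of the lost bins, 39.4% (38.9 to 39.8%) lay within 1 kb of a bin in state 1 to 5 in CR 12m and 93.3% within 10 kb. These neighbour and domain shares were not computed for the mirror set or for all autosomal bins. Whether they are particular to the lost bins was therefore not tested.

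The share lost was lower in longer domains and deeper inside them. It was 6.15% in domains of 1 bin (200 bp) and 7.86% in those of 400 bp, between 5.12% and 4.47% in domains of 600 to 5000 bp, 3.20% at 5200 to 10000 bp and 1.27% above that. No domain over 10 kb was lost whole, of 9489. By position, 5.03% of bins at a domain edge were lost, against 2.93% of those 1200 to 2200 bp from the nearer edge and 0.788% of those more than 5200 bp inside. Both breakdowns take state 3 and state 4 bins together. The share lost was 7.4% for bins in state 4 at both SD ages and 0.0121% for bins in state 3 at both. Neither breakdown was computed for state 4 bins alone, so the part of the starting state was not tested. Around stretches of 1 kb or more, whose middle is active in both SD groups and quiescent in CR 12m by the choice of the bins, state 3 or 4 covered 42.8% (SD 3m), 49.7% (SD 12m) and 38.1% (CR 12m) of positions 10 kb from the middle, towards the start of the chromosome.

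**Figure D3:**
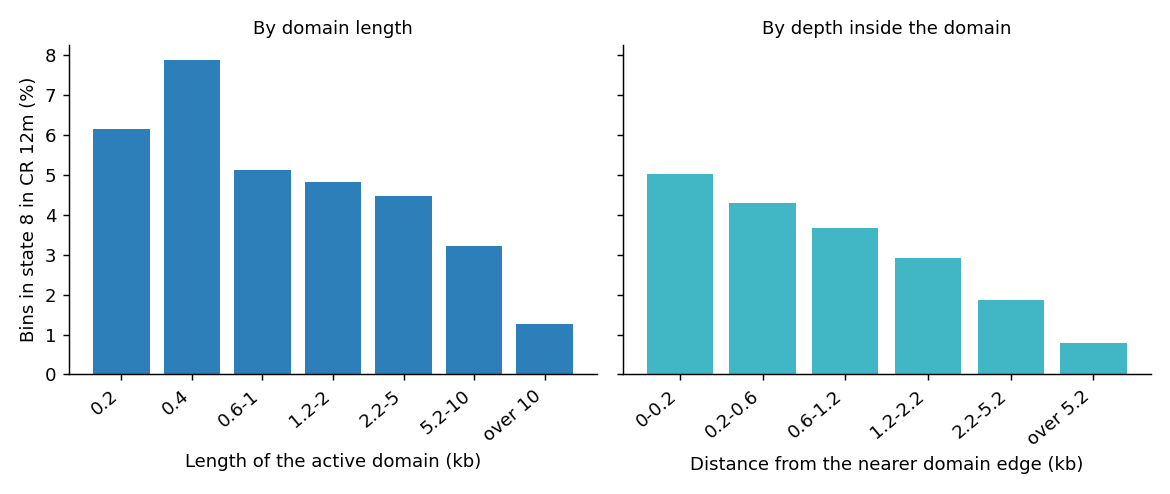
Percent of bins active in both SD groups that were in state 8 in CR 12m (vertical axis), by length of the domain in kb (left) and by distance from the nearer domain edge in kb (right). The bars drop from 7.86% in domains of 400 bp to 1.27% in those over 10 kb, and from 5.03% at the edge to 0.788% over 5200 bp inside.

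Position and sequence were not used by the rule. Lost bins lay farther from promoters than kept bins. Against the genome at large they were nearer by the median and less often beyond 100 kb, but also less often within 2 kb of a TSS. Their median distance to a TSS was 30846.5 bp, against 18602 bp for kept bins, 20053 bp for kept bins in state 4 in both SD groups, the like-for-like set, 36080 bp for bins lost in both 12-month groups and 58141 bp for all autosomal bins. Within 2 kb of a TSS were 2.59% of lost, 5.11% of kept, 3.76% of kept state 4 and 3.67% of all autosomal bins, and beyond 100 kb were 15.6%, 7.68%, 7.70% and 37.8%. With the TSS of every transcript in place of 1 for each gene, the shares within 2 kb were 6.52%, 11.2%, 8.16% and 6.89%. The lost share near a TSS was the lower one on 17 of 19 autosomes beside kept state 4 bins, and beyond 100 kb it was lower on 2. Bins lost in SD 12m only were similar in distance, with a median of 29952 bp and 2.36% within 2 kb. They differed in where they lay against genes: 54.6% of the bins lost in CR 12m only had their middle base in a gene body (4.50% in exons, 50.1% in introns), against 64.9% of those lost in SD 12m only, 64.6% of those lost in both and 59.5% of kept state 4 bins. The gene body share of bins lost in CR 12m only was below that of bins lost in SD 12m only on 17 of 19 autosomes, with ranges of 42.6 to 65.7% and 56.0 to 74.9%.

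Lost bins were poorer in GC. Their GC content was 40.7%, against 43.7% in kept state 4 bins, 42.0% in bins lost in SD 12m only, 39.5% in bins lost in both 12-month groups and 41.9% over all autosomal bins. On all 19 autosomes it was below that of kept state 4 bins (40.01 to 42.7% against 42.4 to 45.5%) and below that of bins lost in SD 12m only. CpG dinucleotides, the sites of DNA methylation, numbered 8.0 per kb in lost and 9.89 in kept state 4 bins. Masked repeats made up 27.2% and 30.1% of their bases. Within state 4 at both SD ages, the share lost was 12.0% in bins under 35% GC, 7.63% from 40 to 45% and 2.91% at 55% or more. GC content affects the recovery of fragments in sequencing libraries, and its part in the result was not tested.

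Motifs of common liver factors differed little in frequency between lost bins and kept state 4 bins. Among bins of like GC content the gap was narrower for C/EBP, forkhead and the nuclear receptor half-site and wider for HNF4, PU.1, CREB and the D-box. It changed direction for SREBP and the antioxidant response element. For the rarer PU.1, SREBP and D-box motifs the gap at like GC was larger in proportion. Both strands were searched, and motifs may overlap. Over all bins, C/EBP (TTGCNNAA) was in 8.78% of lost and 7.67% of kept state 4 bins, forkhead (TGTTTAC) in 3.38% and 2.78%, STAT (TTCNNNGAA) in 6.89% and 5.90% and AP-1 (TGANTCA) in 6.34% and 5.71%. The nuclear receptor half-site (AGGTCA) was in 10.5% and 11.7%, HNF4 (CAAAGTCCA) in 0.223% and 0.249%, and the E-box of CLOCK and BMAL1 (CACGTG) in 2.10% and 2.55%. Among bins of 38 to under 44% GC, C/EBP stood at 9.06% and 8.63%, forkhead at 3.33% and 3.26%, the half-site at 11.2% and 11.3%, STAT at 7.18% and 6.6%, HNF4 at 0.218% and 0.256%, and PU.1 (GAGGAAGT), a motif of macrophage and B cell enhancers, at 1.172% and 0.916%. Over all bins, PU.1 was in 1.18% of lost and 1.13% of kept state 4 bins. SREBP (TCACNCCAC) was in 0.479% and 0.586% over all bins, and in 0.531% and 0.433% at 38 to under 44% GC. The antioxidant response element (TGACNNNGC) was in 5.27% and 5.96%, and in 5.28% and 5.13%. Of all autosomal bins, 9.28% held C/EBP, 2.98% forkhead, 11.1% the half-site, 7.36% STAT and 1.20% PU.1. A match is a description of letters and not a bound site.

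The 20 longest stretches measured 9800 to 15000 bp, and 1118 of their 1130 bins were in state 4 in SD 3m and all 1130 in SD 12m. None was a wholly lost domain, and 14 lay in a gene body. The longest of all was near Igf1, which encodes the growth factor that the liver secretes in response to growth hormone. It spanned chr10:87760201-87775200, its middle 90565 bp upstream of the TSS, in intergenic sequence, and all of its 75 bins carried state 4 at both SD ages. It made up the end of a domain of 36000 bp, of which 90 of 180 bins were lost and the other 90 were in state 4 in CR 12m.

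In the neighbourhood of Igf1 the loss was confined to its far upstream part. Of the 1017 bins active in both SD groups with Igf1 as nearest gene, 123 (12.1%) were lost in CR 12m, 515 carried state 3, 373 state 4 and 6 state 5. The 123 bins made up 7 stretches, of 15000, 3000, 2200, 2000, 1000, 1000 and 400 bp, and all 7 lay upstream, their middles 55065 to 122765 bp from the TSS. No bin there was lost in SD 12m only or gained in CR 12m only, 3 were lost in both 12-month groups, and 10 were gained in SD 12m only. The bin at the TSS was in state 3 in all 3 groups. From 140 kb upstream to 100 kb downstream, 1200 bins in all, state 8 covered 46 bins (SD 3m), 48 bins (SD 12m) and 184 bins (CR 12m), and state 3 covered 677, 564 and 589. This window holds the 123 lost bins, which are in state 8 in CR 12m only by the rule. Igf1 was picked for its long lost stretch, so the state 8 counts are not independent of that choice.

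**Figure D4:**
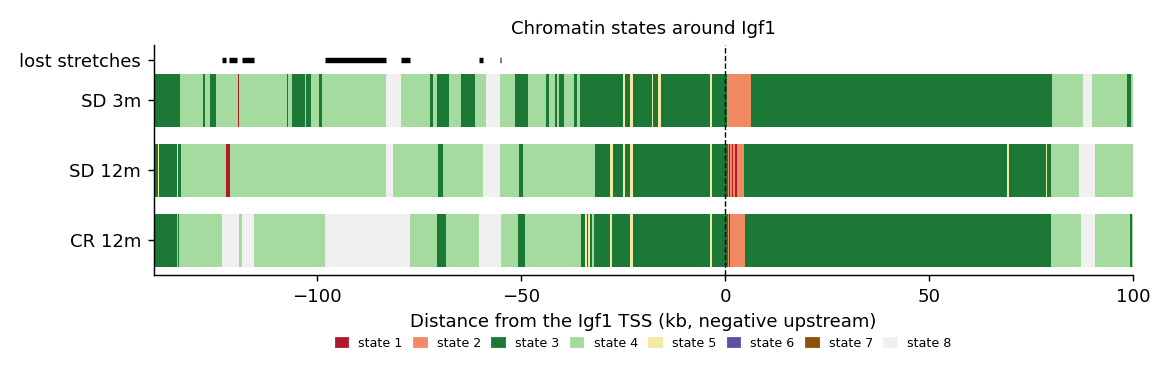
Chromatin state (colour) by distance from the Igf1 TSS in kb (horizontal axis, negative upstream) in SD 3m, SD 12m and CR 12m; black bars mark the 7 lost stretches. They lie 55065 to 122765 bp upstream, where light green (state 4) in both SD groups gives way to grey (state 8) in CR 12m, and no black bar lies over the gene or within 50 kb upstream of its TSS.

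The next longest stretches were of 14200 bp in Phlpp1, of 13600 bp in intergenic sequence with D830026I12Rik nearest, and of 12600 bp in Bub1b. Near Bub1b, 96 of 205 active bins (46.8%) were lost, 15 more were lost in both 12-month groups, and the TSS bin went from state 2 in both SD groups to state 3 in CR 12m. Stretches of 12000 and 11800 bp followed, upstream of Usp6nl, a regulator of RAB5, and in Arid4b, a subunit of the SIN3A histone deacetylase complex. Further genes of this group were Dpt, for an extracellular matrix protein (11000 bp, 78 of 601 bins lost), Lmnb1, for lamin B1 of the nuclear lamina (11000 bp, 55 of 248), Cwc27, for a spliceosome-associated protein (2 stretches of 10800 and 10600 bp, 176 of 641 bins), the integrin subunit gene Itga2 (74 of 148, with a stretch of 10400 bp that lay inside the neighbouring gene Itga1) and Lin9, of the cell cycle complex MuvB (10000 bp, 50 of 149). Spata5 (87 of 164 bins), N4bp2 (42 of 300), Ppp1r12a (69 of 525) and the lncRNA genes Gm4876 (108 of 261), A430035B10Rik (82 of 151, the longest stretch lying inside Umad1) and Gm6936 (125 of 200) complete it, with Sgk1 and 4930459C07Rik.

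Sgk1, a serum- and glucocorticoid-induced kinase, had many separate losses. Of 277 bins active in both SD groups, 160 (57.8%) were lost in CR 12m, in 14 stretches of 400 to 10000 bp on both sides of its TSS. No bin was lost in SD 12m only or gained in CR 12m only, while 124 were gained in SD 12m only. Sgk1 was picked for a long stretch lost in CR 12m, so these counts are not independent of that choice. The TSS bin of the longest transcript was in state 5 in SD 3m and in state 8 in both 12-month groups.

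The losses were spread over many genes. Of the 16051 genes nearest to a bin active in both SD groups, 3296 (20.5%) had a lost bin and 2107 (13.1%) had 5 or more. In 167 genes all such bins were lost, and 444 genes held 50% of the lost bins. Pde7b, for a cAMP phosphodiesterase, had the most, 285 of 824 bins (34.6%) in 18 stretches, of which the longest measured 7800 bp. It had 178 bins gained in SD 12m only and none gained in CR 12m only. Its TSS bin carried state 3, 1 and 4 in SD 3m, SD 12m and CR 12m. Pde7b was picked for its lost bins, so its gained counts are not independent of that choice. The others among the 10 genes with the most were Gm20125 (271 of 606), 4930459C07Rik (261 of 651), Dleu2 (239 of 559), the plasma membrane calcium pump gene Atp2b1 (210 of 474), 1700016G22Rik (178 of 846), Gm33045 (177 of 677), Cwc27 (176 of 641), 7530428D23Rik (171 of 727) and 4930441H08Rik (171 of 1783). Of these 10, 7 are lncRNA genes and 4 lie on chromosome 10; lncRNA genes were 11.3% of the 16051 genes, 15.7% of those with 5 or more lost bins and 26.8% of the 157 with 50 or more. A count of bins favours genes whose TSS is alone in a large tract. The TSS bins of Dleu2, Atp2b1 and Cwc27 stayed in state 1, the active TSS state, in all 3 groups.

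Among the 9048 genes with 50 or more bins active in both SD groups, the highest share lost was at Neb, for the giant muscle protein nebulin, which lost all 50 bins, in 7 stretches of 200 to 4800 bp. Hormad1, of the meiotic chromosome axis, lost 62 of 65 (95.4%), the potassium channel subunit gene Kcns1 65 of 69 (94.2%), the ceramide synthase gene Cers3 44 of 53 (83.0%) and Mir335 46 of 57 (80.7%). The nearest TSS need not be that of the gene a stretch lies in: all stretches assigned to Kcns1 lay inside Stk4 and those assigned to Mir335 inside Copg2. The TSS bins of Neb and Cers3 were in state 8 in all 3 groups, that of Kcns1 was in the Polycomb state 6 in all 3, and that of Hormad1 was in state 4 in SD 3m and in state 8 in both 12-month groups. None of the 5 had a bin lost in SD 12m only or gained in CR 12m only. Bins active in SD 3m and lost in both 12-month groups numbered 47 (Neb), 45 (Hormad1), 29 (Kcns1), 24 (Cers3) and 12 (Mir335). The 5 were picked by their share lost in CR 12m, so these counts are not independent of that choice.

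Most promoters near lost bins were in an active state in each group. Of the 2107 genes with 5 or more lost bins, 73.3% (SD 3m), 78.7% (SD 12m) and 74.6% (CR 12m) had their TSS bin in state 1 to 4, against 78.8%, 85.8% and 86.3% of all 16051 genes. With the poised state 5 added, the values were 81.8%, 81.3% and 78%, against 86.6%, 88.0% and 88.4%. The 2 TSS states, 1 and 2, held 55%, 47.6% and 42.1% of these TSS, against 60.2%, 52.5% and 46.4%. Of the 1643 genes with 5 or more lost bins whose TSS bin was in state 1 to 5 in both SD groups, 71 (4.32%) had it in state 8 in CR 12m, against 146 of 13604 (1.07%) over all genes. Some of these TSS bins are themselves lost bins, so this difference is not independent of how the bins were chosen.

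Genes of the main hepatocyte functions had few lost bins nearby. In 13 lists of liver and diet genes, the share of bins lost lay between 0.111% and 2.5%, below the 2.61% over all genes in every list; among state 4 bins, 3 lists were above the value for all genes (growth hormone, IGF and insulin axis; non-parenchymal markers; inflammation and interferon). The median share over genes was 0 in every list, as over all genes. State 4 bins, from which most losses came, made up 18.1 to 41.7% of the active bins of a list and 33.8% over all genes, so the share among bins in state 4 in both SD groups is given as well, against 7.4% over all genes. Each list is set against 20.5% of all genes with a lost bin. Bins lost in SD 12m only numbered 98 for secreted plasma proteins, 107 for fatty acid oxidation, 109 for fatty acid and sterol synthesis and 137 for the clock. They were fewer than bins lost in CR 12m only for the growth hormone axis (189), inflammation (79), non-parenchymal markers (13) and cell cycle (5). For every other list they were more, and over all genes they numbered 46080.

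For secreted plasma proteins, 5 of 4497 bins were lost (0.111%, and 0.476% of state 4 bins), all near Apob, the structural protein of very low density lipoprotein, so 1 of 39 genes had a loss. For fatty acid oxidation and ketogenesis, the pathway by which the fasting liver turns fat into ketone bodies, it was 4 of 3461 bins (0.116%, and 0.450% of state 4 bins). These lay at 2 of 32 genes, Acadl and Plin2 with 2 bins each. Near genes of this list, 571 bins were gained in CR 12m only, 16.5 for each 100 active bins. The other 12 lists had 1.89 to 10.8, and all genes 5.05. How many genes of the list shared this gain was not counted, and its value without the top gene was not computed. For fatty acid and sterol synthesis the loss was 21 of 6766 (0.310%) at 2 of 36 genes, Cyp51 (17 bins) and Lss (4 bins), both of cholesterol synthesis. For cytochrome P450 and conjugation it was 17 of 3515 (0.484%), all near Cyp7b1, an oxysterol hydroxylase. These low shares held among state 4 bins as well, at 1.07% for synthesis and 1.81% for cytochrome P450.

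The circadian clock list lost 8 of 2470 bins (0.324%, and 1.29% of state 4 bins) at 4 of 21 genes, among them Nr1d2, a repressor of the clock, with 5 bins. Gluconeogenesis, glycolysis and glycogen lost 32 of 5555 (0.576%, and 2.39% of state 4 bins) at 3 of 24 genes: the transcription factor genes Foxo1 (14 of 506 bins) and Creb1 (13 of 183), and the glycolytic Pfkl (5 of 41). Steroid, bile acid and sex-biased genes lost 28 of 4382 (0.639%, and 1.63% of state 4 bins) at 3 of 25 genes, 24 of them near A1bg and 2 near Hsd3b5. Hepatocyte transcription factors and nuclear receptors lost 70 of 10664 (0.656%, and 3.62% of state 4 bins) at 4 of 31 genes, with 52 of 1573 bins near Nr3c1, the glucocorticoid receptor gene, 16 near Nr5a2 and 1 near Esr1.

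Lists of signalling and growth came closer to the value for all genes, and for several of them 1 gene held most of the lost bins. The growth hormone, IGF and insulin axis lost 202 of 8093 bins (2.5%, and 10.1% of state 4 bins) at 6 of 23 genes. Of these, 123 were near Igf1, 34 of 283 near Jak2, the kinase of the growth hormone receptor, and 19 of 1847 near Pik3r1, the regulatory subunit of PI3-kinase. Without Igf1, the list stood at 1.12% of its bins and 4.73% of its state 4 bins. Autophagy, sirtuins and nutrient sensing lost 122 of 4892 (2.49%, and 6.61% of state 4 bins) at 5 of 31 genes, with 74 of 228 bins (32.5%) near Sesn3, an inhibitor of mTORC1 signalling, 33 of 384 near Atg7 and 10 of 122 near Atg5; without Sesn3 the shares were 1.03% and 2.82%. The longest stretch near Sesn3 measured 8400 bp with its middle 9701 bp upstream of the TSS, and the TSS bin went from state 1 in both SD groups to state 4 in CR 12m.

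Inflammation and interferon lost 100 of 5068 bins (1.97%, and 7.50% of state 4 bins) at 4 of 33 genes, with 39 of 165 near Tnfaip3, an inhibitor of NF-kB signalling, and 20 of 466 near Nfkb1. Cell cycle and p53 lost 58 of 2964 (1.96%, and 4.61% of state 4 bins) at 5 of 25 genes, with 23 of 581 near Ccnd1, for cyclin D1, 17 of 318 near Gadd45a and 8 of 45 near Mcm5. The list of non-parenchymal liver cell markers lost 33 of 1670 (1.98%, and 9.09% of state 4 bins) at 2 of 17 genes. These were Ptprc, for the leukocyte antigen CD45, with 26 of 56 bins, and Epcam, a cholangiocyte marker, with all 7. Without Ptprc the shares were 0.434% and 2.19%. Without Tnfaip3, the inflammation and interferon list stood at 1.24% and 5.12%.

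**Figure D5:**
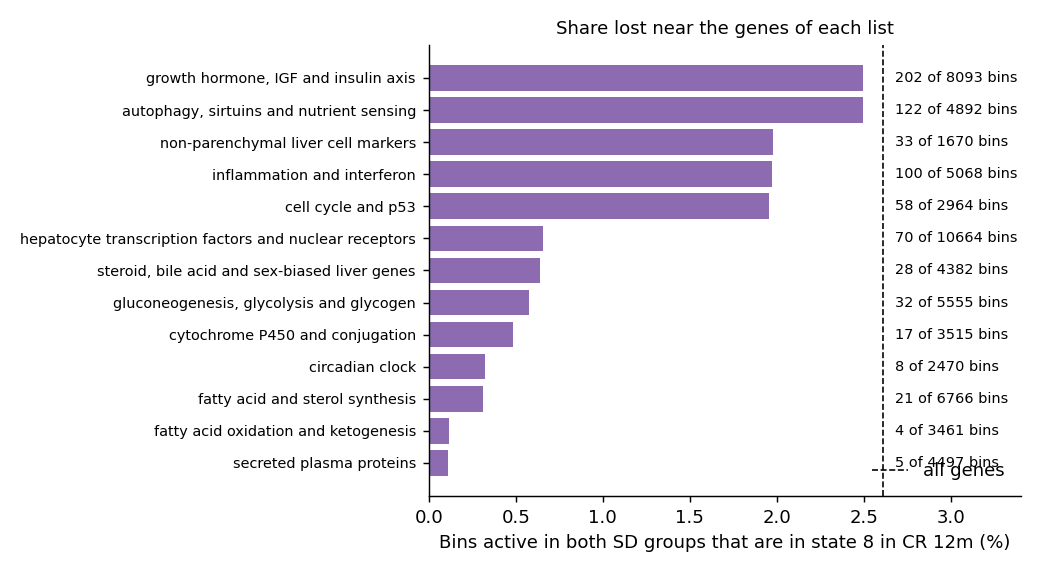
Percent of bins active in both SD groups that were in state 8 in CR 12m (horizontal axis), over the bins nearest to the genes of each of 13 lists (vertical axis), with the number of bins beside each bar; the dashed line is the value for all genes, 2.61%. All 13 bars end below the line, from 0.111% for secreted plasma proteins to 2.5% for the growth hormone, IGF and insulin axis; among state 4 bins alone, which the plot does not show, 3 lists exceed the 7.4% for all genes.

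Markers of cell types were read at their TSS. Of 6 hepatocyte markers (Alb, Apoa1, Ttr, Serpina1c, Cyp2e1 and Cps1), 5 were in state 1 to 5 in SD 3m and 6 in each 12-month group, and none of their 1462 active bins was lost. Of 4 sinusoidal endothelium markers, 3, 2 and 4 were in state 1 to 5 in SD 3m, SD 12m and CR 12m, of 4 cholangiocyte markers 2, 3 and 3, and of 4 Kupffer cell markers 1, 0 and 0. Of 4 stellate cell markers and 4 lymphocyte markers, 1 each was in such a state in every group. Of the 26 markers, the one whose TSS went from an active state in both SD groups to state 8 in CR 12m was Epcam, at state 4, 4 and 8, where a stretch of 1400 bp spanned the start. Ptprc, outside this panel, was in state 5 in both SD groups and in state 8 in CR 12m. Near the other 20 markers 7 bins were lost, all at Epcam. Active bins numbered 597 for the endothelium markers, 259 for cholangiocytes and 108 for lymphocytes. They numbered only 6 for stellate cells and 3 for Kupffer cells, so little could be lost near those. The part of cell composition in the losses was not tested.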

How the data were processed

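Livers of mice on standard diet (SD 3m, SD 12m) or caloric restriction (CR 12m) were compared by chromatin state. The authors aligned reads to mm10 with BWA 0.6.2-r126, filtered them with SAMtools 0.1.18, merged the libraries of each group and assigned each 200 bp bin 1 of 8 ChromHMM states. The deposited values are these state labels, a category and not a signal, count or score, and the depth behind them is unknown. ChromHMM smooths labels along the genome, which makes neighbouring bins alike, and merging hides the spread between mice.

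Bins were compared with pandas 2.3.3, scipy 1.17.1 and numpy 2.4.6 under Python 3.11.15. The bins per chromosome equalled the whole bins of GRCm38.p6, which gave TSS (longest curated transcript), exons, sequence and masked repeats. GC content left out bins with an unassembled base. Of 401 listed genes all matched a RefSeq symbol. The functions were tested on simulated segmentations with known losses. No test was run, as each group has 1 segmentation. Wilson 95% intervals cover the counting of bins only. The members, the gene lists and the motifs were chosen with earlier results of these data known.

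Named genes were those nearest to the 20 longest stretches, the 10 with the most lost bins, the 5 with the highest share lost among genes with 50 or more active bins, and up to 3 of each list with the most lost bins. Some genes that this rule names are not reported here. Alternatives changed the chromosomes, the minimum stretch length, the states counted as lost, the starting states, the distance to active bins, and the TSS, gene and repeat definitions.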

Additional observations from a re-analysis of the deposited data

How the results depend on the processing

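Of 50 alternative values, 23 stayed within the Wilson 95% interval of the reported value (for the number of lost bins, within 1.5 times), among them all values with chromosome X added and all with state 7 also counted as lost. For GC content this was the interval of a share of bins of that size, which is not the spread of base composition. The starting state mattered most. With only bins in state 3 in both SD groups, 127 bins were lost, 0.0121% of active bins (mirror 0.00818%), and 35.4% were in wholly lost domains, 74.8% within 1 kb of a bin in state 1 to 5 in CR 12m, 3.94% within 2 kb of a TSS and 31.5% in gene bodies. With only state 4 in both, the share lost was 7.4% (mirror 8.97%), with 28.6% in wholly lost domains, 38.9% within 1 kb of such a bin and 2.43% within 2 kb of a TSS. With only stretches of at least 1 kb, these were 2.257% (mirror 2.29%), 27.9%, 34.8% and 2.18%, and 55.2% lay in gene bodies. With only bins over 1 kb from any bin in state 1 to 5, 28506 were lost, 1.58% (mirror 1.38%), with 44.4% in wholly lost domains, 1.88% within 2 kb of a TSS and 55.2% in gene bodies; the share within 1 kb is 0 by construction and has no value. Taking the TSS of every transcript put 6.52% of lost bins within 2 kb, taking all annotated genes put 62.6% in gene bodies, and bins without a masked repeat base had 43.2% GC. Here fewer or other bins enter by construction. No paired analysis was possible because each group has 1 merged segmentation. The depth of the merged reads is unknown, so what it limits could not be measured.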
